A study of Mus musculus with 2 samples.

Results

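Microglia are the resident macrophages of the brain. The microRNAs described here are 7 genes studied in microglia and in the white blood cells of the circulation: Mir142, Mir146, Mir146b, Mir150, Mir155, Mir21a and Mir223. They were taken by gene symbol, by a rule that uses no measured value but was written with earlier results of these data known, and all 7 had a row among the 2202 microRNA genes counted. Small RNA, labelled with a size range under 30, was read from hippocampus of female B6CASTF1/J mice aged 14 days, F1 hybrids of C57BL/6J with CAST/EiJ, with no treatment named and no further condition. The single group had 2 biological replicates, each a pool labelled with 3 females and sequenced as 1 library, so pool and library preparation cannot be told apart. By its label the tissue was a hippocampal layer, left unnamed, and every cell type in the dissected tissue could contribute RNA.

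A microRNA gene is transcribed as a longer RNA that is cut to a hairpin and then to mature strands from its 5′ and 3′ arms, and a mature strand guides repression of messenger RNAs that pair with its seed, bases 2 to 8. Among these genes Mir142 is active in nearly all blood-forming lineages, Mir223 in neutrophils and other myeloid cells, and Mir150 in mature lymphocytes. Mir155 is made from the transcript Mir155hg and is induced when macrophages and lymphocytes are activated. Mir146 is induced by inflammatory signalling through NF-kappaB, and miR-146a lowers the signalling proteins Traf6 and Irak1 in return. Mir21a is the least restricted of the set, being present in many tissues and raised in glia after injury.

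The mature sequences show which reads belong to which gene and which members could repress the same messages. They are from RefSeq (GRCm38.p6), written 5′ to 3′ with the seed in capitals, and for each gene with more than 1 entry the arm usually described as the main product comes first. The counts do not separate the arms.
mmu-miR-146a-5p: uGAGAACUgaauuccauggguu
mmu-miR-146b-5p: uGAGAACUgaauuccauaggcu
mmu-miR-155-5p: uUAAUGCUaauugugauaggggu
mmu-miR-21a-5p: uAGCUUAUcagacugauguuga
mmu-miR-142a-3p: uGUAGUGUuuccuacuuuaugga
mmu-miR-142a-5p: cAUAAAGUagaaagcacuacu
mmu-miR-223-3p: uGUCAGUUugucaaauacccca
mmu-miR-150-3p: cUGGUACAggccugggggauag
mmu-miR-150-5p is named only. The table held 13 mature entries for the 7 genes, 21 to 23 bases long, with 12 different seeds. The seed gagaacu was the one shared within the set, by miR-146a-5p and miR-146b-5p, which have 20 of 22 bases in common and differ at G18A and U21C, counted from the 5′ end with the miR-146a base first. They are identical over their first 17 bases, so a read must reach base 18 to be assigned to a single gene. Among 1738 mature entries of the table, the seed of miR-21a-5p recurred in Mir21c. The other seeds of the 13 entries recurred in no further gene. The table held no entry for miR-150-5p, so its seed was not compared. Mir21c had 0 counts in both libraries. In CPM, a gene's count per 1000000 counts assigned to genes, a floor of 3 counts was 0.630 in replicate 1 and 1.05 in replicate 2. This floor is a fixed limit and not a counting interval for 0 counts.

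The members lie at separate places in the genome (GRCm38, GENCODE M21). Mir142 (ENSMUSG00000105196.1) is on chromosome 11, 87756864 to 87756927, plus strand, in an intron of the noncoding Mir142hg. Mir146 (ENSMUSG00000065601.1) is on chromosome 11, 43374397 to 43374461, minus strand, and overlaps no other annotated gene. Mir21a (ENSMUSG00000065455.1) is on chromosome 11, 86584067 to 86584158, minus strand, within the 3′ UTR of Vmp1, which encodes an autophagy protein. Mir150 (ENSMUSG00000065495.1) is on chromosome 7, 45121757 to 45121821, plus strand, and overlaps no other gene. Mir155 (ENSMUSG00000065397.1) is on chromosome 16, 84714140 to 84714204, plus strand, in an exon of Mir155hg. Mir146b (ENSMUSG00000070127.2) is on chromosome 19, 46342762 to 46342870, plus strand, in an intron of Mfsd13a. Mir223 (ENSMUSG00000076066.1) is on chromosome X, 96242817 to 96242926, plus strand, in an exon of the noncoding F630028O10Rik. On either strand, the nearest microRNA gene that did not overlap a member was 5097 bases from Mir150 and over 500000 bases from each of the other members. Hairpin GC content ran from 40.0% in Mir146 to 63.1% in Mir150, around a median of 50.8% over all microRNA genes.

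Mir142 is the member whose count depends on strand. Its whole hairpin lies inside Mir142b, annotated on the opposite strand, and the 64 bases of Mir142 are the reverse complement of part of that gene. On the sense strand Mir142 had 260 counts in replicate 1 and 117 in replicate 2, while Mir142b had 0 in both. In the unstranded column Mir142 and Mir142b had 0 counts in both libraries, and that column lists reads as ambiguous where the stranded columns list none. The hairpins of Mir146 and Mir146b share a run of 21 bases and are uncertain where a read ends before base 18. The other 5 members share at most 15 bases with another microRNA gene in the same direction. Opposite-strand counts of the members came to 3 for Mir150 in replicate 1 and 0 for every other member and library.

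Assigned counts summed to 4764797 in replicate 1 and 2852269 in replicate 2, which were 36.1% and 36.4% of all reads. Multi-mapping reads, 40.8% and 37.1%, were counted for no gene. All 7 members were detected, at 10 or more counts in each library, beside 409 of 2202 genes (18.6%) over the whole table, but Mir223 and Mir146b only reached this limit in replicate 2, with 10 counts each. Intervals given below are exact Clopper-Pearson intervals at 95% and cover counting error only, since amplified reads without molecular identifiers are not independent molecules.

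Together the 7 genes were a minor part of the hippocampal microRNA profile. They held 11776 counts in replicate 1, 0.247% of the assigned total (0.243 to 0.252), and 5386 counts in replicate 2, 0.189% (0.184 to 0.194). The mean share was 0.218% ± 0.0412 (SD, n = 2), and the 2 intervals did not overlap. Over all reads of a library, multi-mapping and unmapped ones included, the mean share was 0.0790%. In bulk tissue, fewer cells of a type and less RNA per cell cannot be told apart.

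Their levels fell into a high, a middle and a low set, 314-fold apart from the highest to the lowest mean. Levels are CPM of the assigned total and were not divided by gene length, because the annotated mature strands of the members are of similar length, 21 to 23 bases. Read lengths were not analysed. Capture in library preparation can differ between sequences and was not tested. The high set was Mir150, Mir146 and Mir21a, which held 94.4% ± 0.585 (SD, n = 2) of the members' counts.

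Mir150, best known from mature lymphocytes, was highest, though the cells it came from in this tissue were not tested. It had 4721 counts in replicate 1 and 2387 in replicate 2, or 991 CPM (963 to 1019) and 837 CPM (804 to 871), and ranked 108 and 114 among all genes. The mean was 914 ± 109 CPM (SD, n = 2). Mir146, the NF-kappaB-induced gene, followed with 3254 and 1678 counts, 683 CPM (660 to 707) and 588 CPM (560 to 617), a mean of 636 ± 66.9. Both Mir150 values lay above both Mir146 values, and Mir150 stood at 1.45 times Mir146 in replicate 1 (1.39 to 1.52) and 1.42 times in replicate 2 (1.34 to 1.52). Mir21a had 3098 and 1044 counts, 650 CPM (627 to 673) and 366 CPM (344 to 389), a mean of 508 ± 201. Its values overlapped those of Mir146: the 2 genes were close in replicate 1, with 1.05 Mir146 counts per Mir21a count (1.00 to 1.10), and apart in replicate 2, with 1.61 (1.49 to 1.74).

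The middle set was Mir155 and Mir142. Mir155, the activation-induced gene, had 395 and 140 counts, 82.9 CPM (74.9 to 91.5) and 49.1 CPM (41.3 to 57.9), a mean of 66.0 ± 23.9. Mir142, the general blood-lineage gene, stood at 54.6 CPM (48.1 to 61.6) and 41.0 CPM (33.9 to 49.2), a mean of 47.8 ± 9.58. The 2 genes overlapped across libraries. The ratio of Mir155 to Mir142 counts was 1.52 in replicate 1, with an interval from 1.30 to 1.78 above equality, and 1.20 in replicate 2, with an interval from 0.929 to 1.54 that included it. Both values of each gene lay below all values of the high set. Mir150 exceeded Mir142 by 18.2-fold in replicate 1 (16.0 to 20.7) and 20.4-fold in replicate 2 (16.9 to 24.8).

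The low set was Mir223 and Mir146b. Mir223, the myeloid gene, had 37 counts in replicate 1 and 10 in replicate 2, or 7.77 CPM (5.47 to 10.7) and 3.51 CPM (1.68 to 6.45), a mean of 5.64 ± 3.01. Mir146b had 11 and 10 counts, 2.31 CPM (1.15 to 4.13) and 3.51 CPM (1.68 to 6.45), a mean of 2.91 ± 0.847. Mir223 was above Mir146b in replicate 1 and equal to it in replicate 2, so their order was not settled at this depth. Both lay well under Mir142, which had 7.03 times the counts of Mir223 in replicate 1 (4.97 to 10.2) and 11.7 times in replicate 2 (6.14 to 25.0).

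**Figure D1:**
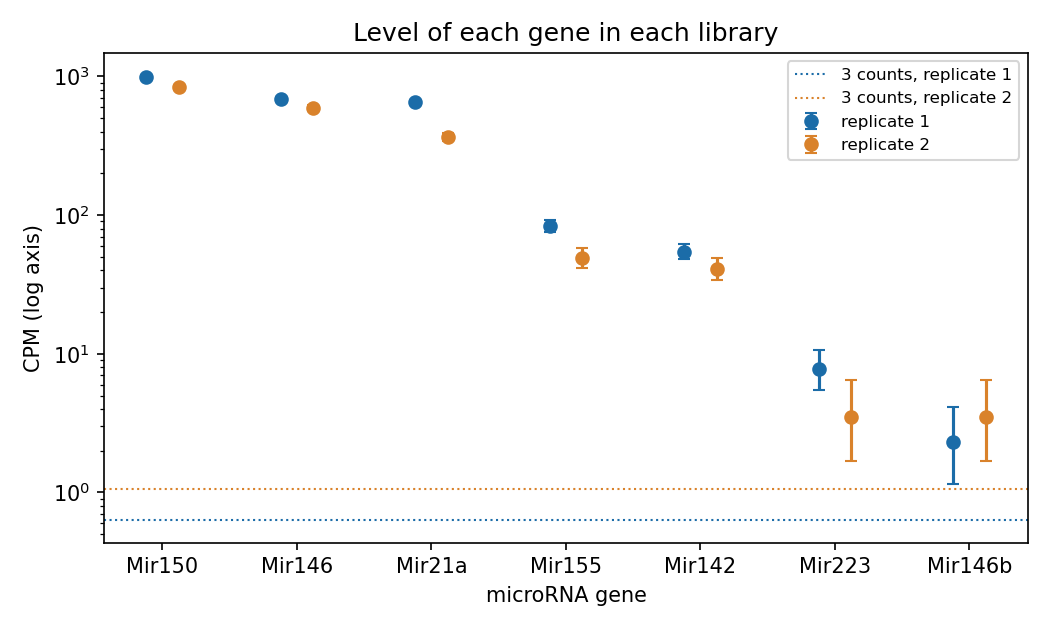
Level of each gene in CPM on a log axis for replicate 1 (blue) and replicate 2 (orange); bars are exact 95% counting intervals and dotted lines mark 3 counts in each library. Mir150, Mir146 and Mir21a sit between 366 and 991 CPM, Mir155 and Mir142 between 41.0 and 82.9, and Mir223 and Mir146b between 2.31 and 7.77.

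The pair with the shared seed was carried almost wholly by Mir146. Mir146b gave 11 of 3265 counts of the pair in replicate 1, 0.337% (0.168 to 0.602), and 10 of 1688 in replicate 2, 0.592% (0.284 to 1.09). These intervals overlapped. As printed above, the differences between the 2 mature strands lie near the 3′ end, and reads too short to reach them would be multi-mapping and counted for neither gene.

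Of the 7 members 3 were lower in replicate 2 and none was higher. The test was a two-sided exact binomial test per gene on library sizes scaled by TMM, with Benjamini-Hochberg adjustment over all 450 genes whose counts summed to 20 or more, called at 0.05. It compares these 2 libraries, not conditions. Of all 450 genes, 63.6% passed in either direction, 31.3% as lower and 32.2% as higher. The 3 of 7 members, 42.9%, were fewer than the share of all genes in either direction and more than the share lower. With 7 members the shares were not tested against each other. The members' median log2 ratio of replicate 2 to replicate 1 was -0.29, beside 0.01 over all tested genes, whose middle 50% ran from -0.46 to 0.54.

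Mir21a had the largest difference among the members that passed, with a log2 ratio of -0.71 (-0.81 to -0.61) and an adjusted p of 5.5e-45 by the exact binomial test. Of the 450 tested genes, 75 had a lower ratio. Mir155 gave -0.63 (-0.92 to -0.35; exact binomial adjusted p = 1.17e-05). Mir150 gave -0.12 (-0.19 to -0.05; exact binomial adjusted p = 0.00155), or 0.919 times replicate 1 after TMM scaling of the library sizes. Its CPM given above, 991 and 837, are on assigned totals without that scaling. The high counts of Mir150 let a difference this small pass.

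The other 4 members did not pass. Mir146 gave -0.09 (-0.18 to -0.01) with an exact binomial adjusted p of 0.0512, next to the threshold, and it passed at 0.0495 when the two-sided p was taken as the sum over outcomes no more probable than the one seen. Mir142 gave -0.29 (-0.62 to 0.03; exact binomial adjusted p = 0.113) and Mir223 gave -1.03 (-2.20 to 0.01; exact binomial adjusted p = 0.0800). Mir146b gave 0.73 (-0.67 to 2.10; exact binomial adjusted p = 0.426), the single positive ratio of the set. For Mir223 and Mir146b the counts allow more than a 2-fold difference or none. With total counts as library sizes, which shifted log2 ratios by -0.12, Mir146, Mir142 and Mir223 also passed as lower, making 6 of 7, and the whole table then had 168 genes lower and 125 higher.

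**Figure D2:**
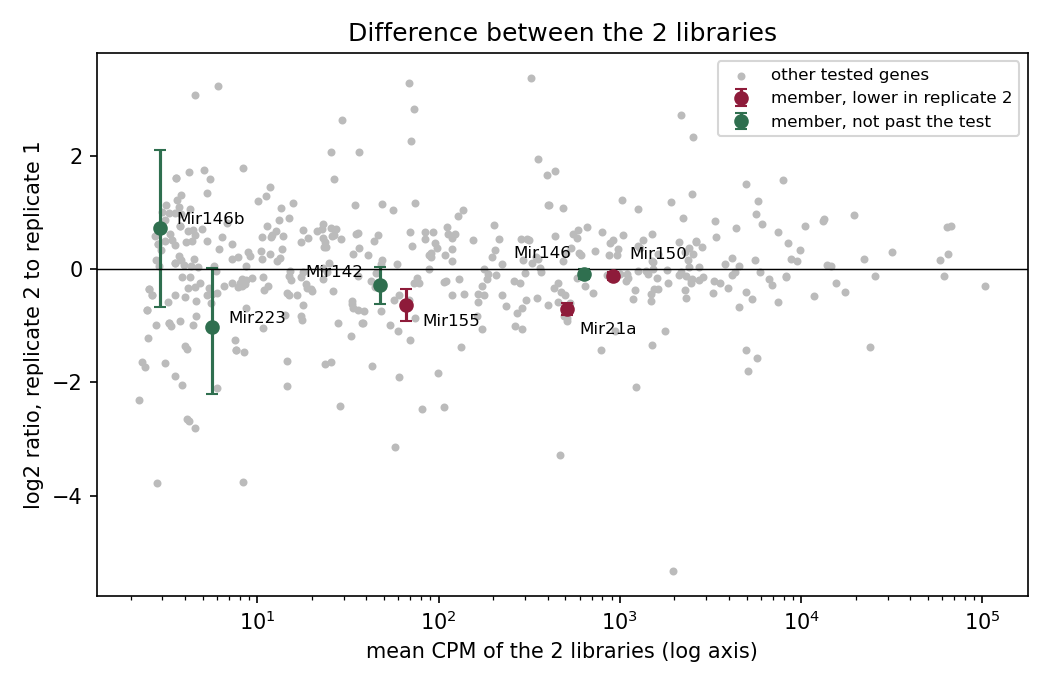
Log2 ratio of replicate 2 to replicate 1 against mean CPM on a log axis; grey points are other tested genes and bars on the members are exact 95% counting intervals. Mir21a and Mir155 lie below 0 at -0.71 and -0.63, Mir150 and Mir146 just under 0 at -0.12 and -0.09, and the intervals of Mir223 and Mir146b are wide.

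The balance among the members differed between the 2 libraries, and ratios of counts within a library show it without any scaling. Mir21a made up 26.3% of the members' counts in replicate 1 (25.5 to 27.1) and 19.4% in replicate 2 (18.3 to 20.5). Mir150 made up 40.1% (39.2 to 41.0) and 44.3% (43.0 to 45.7). Mir146 made up 27.6% (26.8 to 28.4) and 31.2% (29.9 to 32.4). For each of these 3 genes the intervals of the 2 libraries lay apart. Shares of 1 total are tied to each other, so these are not 3 separate differences. Mir150 stood at 1.45 times Mir146 in replicate 1 and 1.42 times in replicate 2. Mir155 held 3.35% (3.04 to 3.70) and 2.60% (2.19 to 3.06), with intervals that overlapped slightly, and Mir142 held 2.21% (1.95 to 2.49) and 2.17% (1.80 to 2.60). Per Mir21a count there were 1.52 Mir150 counts in replicate 1 (1.46 to 1.60) and 2.29 in replicate 2 (2.13 to 2.46), a 1.50-fold difference. The ratio of Mir21a to Mir155, in contrast, was 7.84 (7.06 to 8.73) and 7.46 (6.25 to 8.96), with overlapping intervals. These pairs were picked from 21 possible pairs after their values were seen, and the values describe the 2 libraries with no test.

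**Figure D3:**
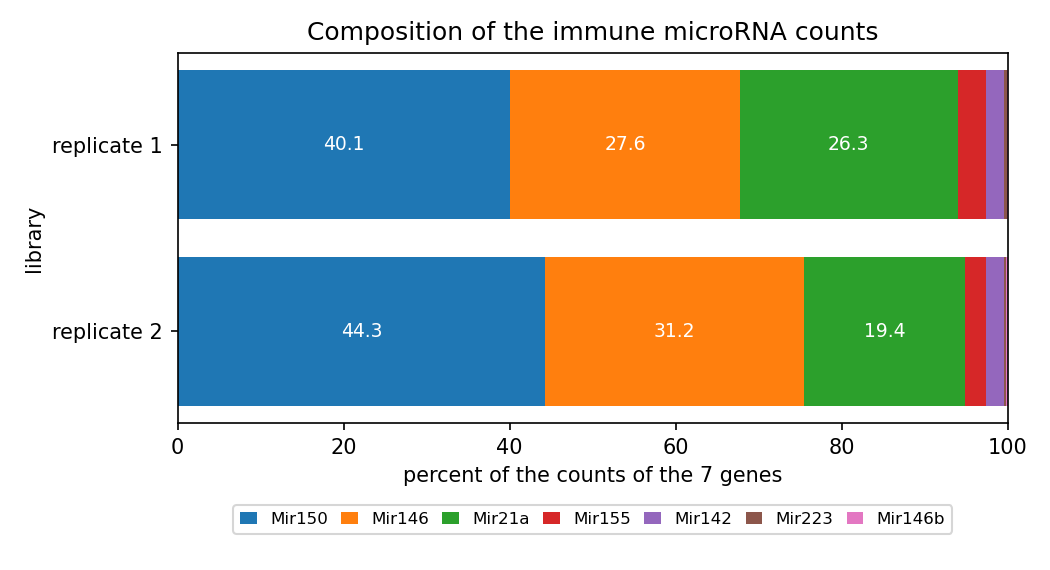
Percent of the counts of the 7 genes held by each gene in replicate 1 and replicate 2, as bars that add to 100. Mir21a takes 26.3% and 19.4%, Mir150 takes 40.1% and 44.3%, and the share of Mir223 and Mir146b is barely visible.

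For each member the gene outside the set with the nearest log2 CPM was found over the 2 libraries, by Euclidean distance. Mir150 was nearest to Mir140, at 967 and 802 CPM and a distance of 0.0709. Mir146 was nearest to Mir338, a microRNA of oligodendrocyte maturation, at 664 and 590 CPM and a distance of 0.0398. Mir21a was nearest to Mir673 (0.115), Mir155 to Mir542 (0.111), Mir142 to Mir679 (0.147), Mir146b to Mir8101 (0.138) and Mir223 to Gm24589 (0.311). With 2 libraries such likeness means only a similar level in each pool.

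Other microRNAs studied in immune cells summed to far more than the 7 members and were more often higher than lower in replicate 2. Of 26 such genes, 22 were detected, and of these 14 passed as higher, 7 as lower and 1 did not pass, with a median log2 ratio of 0.36 beside 0.01 for all tested genes. Over all tested genes 32.2% passed as higher and 31.3% as lower. Of the 26 genes, 10 have a run of 20 bases in common with some further microRNA gene, so their counts are uncertain. Large counts let small differences pass for some of these genes, but neither the counts were all large nor the differences all small. Log2 ratios ran from 0.14 to 2.62 among the 14 that passed as higher. Among the 7 that passed as lower they ran from -1.19 to -0.28. Many of the 26 genes are also expressed by neurons and other brain cells. The 26 genes summed to 73868 CPM in replicate 1 and 82493 in replicate 2. The most abundant genes were the neighbours Mir99b, Mirlet7e and Mir125a, a cluster active in myeloid cells and in neurons, at 19593 ± 7801, 17437 ± 4515 and 7420 ± 2493 CPM (SD, n = 2). Mir99b was higher in replicate 2, at a log2 ratio of 0.96, and Mirlet7e and Mir125a were lower, at -0.41 and -0.58, so the 3 neighbours differed in direction. At the other end, the 4 genes not tested included Mir511, which lies in the macrophage receptor gene Mrc1 and had 6 and 3 counts, and Mir147, induced by Toll-like receptors in macrophages, with 9 and 4 counts. The remaining genes not tested were Mir19a with 2 and 0 counts and Mir19b-1 with 4 and 0. These 4 genes were named after their values were seen.

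Marker lists of other cell types give the setting for these levels. In these lists 2 of the neuron genes, Mir128-1 among them, Mir219a-2 and Mir486 have a run of 20 bases in common with some further microRNA gene. Multi-mapping reads were counted for no gene, so the counts of these genes and the sums that hold them are uncertain. The 7 immune members summed to 2471 CPM in replicate 1 and 1888 in replicate 2. The 4 neuron genes summed to 21076 and 15221 CPM but differed in direction: Mir132, which is also among the 26 genes above, was higher in replicate 2 at a log2 ratio of 0.80, and the other 3 passed as lower, with Mir137 at -0.53 and Mir128-1 at -1.42. Oligodendrocyte genes summed to 1911 and 3173 CPM, with Mir219a-2 higher at 1.17 and Mir338 not past the test at -0.05. Vessel genes summed to 15962 and 20349 CPM, with Mir126a higher at 0.88, while Mir143 and Mir145a were lower at -0.67 and -0.46. Choroid plexus and ciliated-cell genes, led by Mir204, Mir449a and Mir34c, were lower in replicate 2 in 4 of 4 tested genes, beside 31.3% of all tested genes, and summed to 3948 and 1187 CPM. Mir449b of this list, named after its values were seen, had 0 counts in both libraries. Red blood cell genes, Mir451a, Mir144 and Mir486, summed to 290 and 722 CPM, and of these Mir451a passed as higher in replicate 2: it had 1036 and 1892 counts and a log2 ratio of 1.73 (1.62 to 1.84), while Mir144 and Mir486 did not pass at -0.21 and -0.17. Of the members, Mir150, Mir155 and Mir21a were lower and the other 4, Mir142 and Mir223 among them, did not pass, as given above. The part of blood, vessel or choroid plexus content in the differences of the immune members was not tested.

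**Figure D4:**
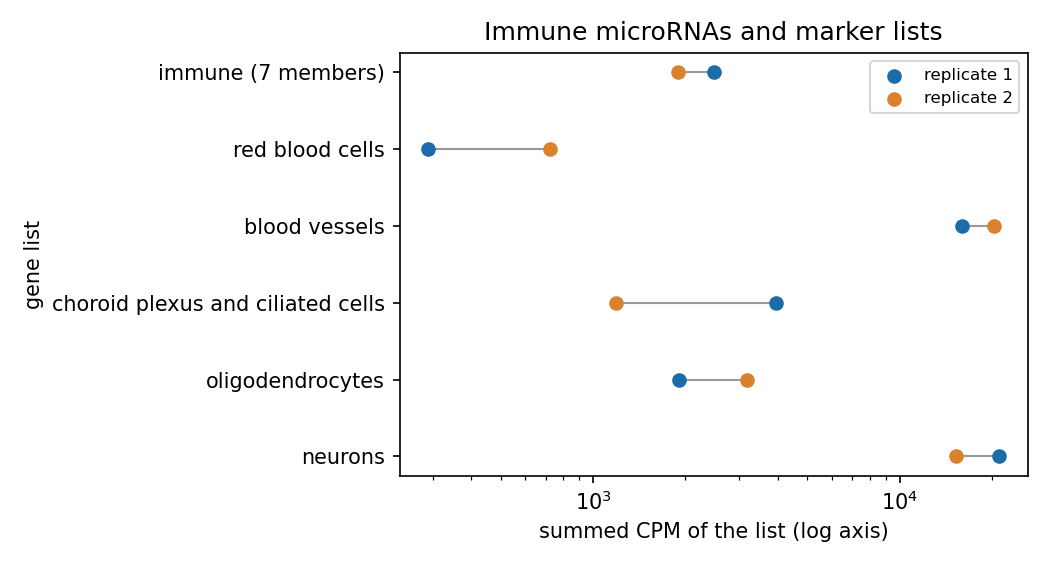
Summed CPM on a log axis of the 7 immune members and of 5 marker lists in replicate 1 (blue) and replicate 2 (orange), joined by a line. The immune sum is 2471 CPM in replicate 1 and 1888 in replicate 2, the choroid plexus sum 3948 and 1187, and the red blood cell sum 290 and 722.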

How the data were processed

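For each library the authors deposited a table of raw read counts by microRNA gene, made with assembly mm10 and GENCODE M21 per its accompanying description. The aligner and the counter were not given in the sources used here. Of its 3 columns, the strand column with the larger total served as sense. Reads listed as unmapped, multi-mapping, ambiguous or outside genes entered neither library sizes nor tests.

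CPM and exact Clopper-Pearson intervals were computed in Python 3.11.15 with scipy 1.17.1, and TMM factors in edgeR 4.0.16 under R 4.3.3 over genes whose counts summed to 20 or more. The exact binomial test doubled the smaller tail, p-values were adjusted over these 450 genes, and detection meant 10 counts in both libraries. On simulated counts for 450 genes with counting noise only, the test called 2.4% of 250 unchanged genes, 78% of 100 genes altered 2-fold and 94% of 100 altered 4-fold. Pools are labelled as separate biological replicates, but with 1 library each a p-value measures the difference between 2 libraries.

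The members and the gene lists were chosen with earlier results of these data known. Genes named are the members, the gene nearest to each in level, the 3 most abundant genes of each list, genes sharing a seed with a member or overlapping one, and those said in the text to be named after their values were seen. Alternatives were size factors from DESeq2 1.42.0, unscaled totals, the unstranded column, other filters, thresholds and denominators, thinning and leaving out each replicate. TMM over genes with any count and the other form of two-sided p were added after seeing the data.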

Additional observations from a re-analysis of the deposited data

How the results depend on the processing

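Mir21a, Mir155 and Mir150 passed as lower in replicate 2 in each of the 9 alternatives to the test, and no member changed direction in any of them where it had enough counts to be tested. Mir146 joined them with DESeq2 size factors, with a summed count of at least 200 and with the other form of two-sided p, for 4 members. Over all tested genes, 64.0%, 87.2% and 64.9% passed in turn in either direction, with 143 of 450, 121 of 273 and 144 of 450 lower. At the summed count of at least 200 only 5 members were tested. The number of members called, 3, all lower, was 6 with total counts as library sizes. It was 5 with TMM factors over genes with any count, an alternative chosen after seeing the data. The added members were Mir146 and Mir142 in both and Mir223 in the first. Over all 450 tested genes, 65.1% and 64.4% passed in either direction in these settings, with 168 and 158 genes lower. Mir146 moved across the threshold most often, with a log2 ratio from -0.22 to -0.08 and an adjusted p from 1.42e-06 to 0.0933. The members' share fell to 0.0790% with all reads as the denominator, by construction, and without replicate 1 or replicate 2 it was 0.189% and 0.247%. At a minimum of 50 counts 5 of 7 members were detected, and at 5 counts all 7. Depth limits Mir223 and Mir146b, whose intervals span more than 2-fold. No paired analysis was possible because the study has a single group.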
